A study of Mus musculus with 4 samples.

Results

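The ADAM membrane sheddases measured here were Adam8, Adam9, Adam10, Adam12, Adam15, Adam17 and Adam19. They were taken as the 7 named genes of the family, through every non-control probe whose annotated gene name in the scanner output was one of them, which gave 12 of the 41174 probes on the array. The rule itself uses no measured value, although the set was chosen with earlier results of these data known. C2C12 is an established line of mouse myoblasts that fuse into myotubes when serum is lowered. Cells were grown to 80% confluence and differentiated for 6 days, either with recombinant human follistatin at 200 ng/ml every 24 h or untreated. The labels give the horse serum of the differentiation medium as 2% in one field and as 10% in another. There were 4 replicates, which the labels call biological. For each, RNA of the treated cells (labelled with Cy3) and of the untreated cells (Cy5) shared 1 Agilent array covering the mouse genome. All 4 arrays had this dye orientation, so a dye effect particular to a probe adds to its ratio and cannot be told apart from the treatment. In bulk RNA, fewer cells of a type and less RNA per cell cannot be told apart.

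ADAM proteins are membrane-anchored, with a metalloprotease domain next to a disintegrin domain that can bind integrins. They are made as precursors, and many lose their prodomain to furin-type convertases. Those with protease activity cut the outer parts off growth factor precursors, cytokines, receptors and adhesion proteins at the cell surface, a step called ectodomain shedding. In muscle, Adam12, Adam19 and Adam9 are also known as meltrins alpha, beta and gamma, a group first described in differentiating mouse myoblasts, and Adam12 has been linked to myoblast fusion. Follistatin binds activins and myostatin outside the cell and keeps them from their receptors.

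Slide 1 held replicates 1, 2 and 3, and slide 2 held replicate 4. By the scanner software's call, 61.1% to 65.2% of follistatin spots and 61.4% to 69.4% of untreated spots stood well above background, a state called detected from here on. Replicates 2 and 3 stood apart from the rest by their likeness to each other: across tested probes, which are not independent, their ratios correlated at r = 0.82, against 0.038 to 0.32 for the other 5 pairs, so the results are also given with these arrays averaged. All 10 markers of muscle cells were detected in each channel of each array, among them Myog, Des and Acta1. Their summed signal ran from 703191 to 1127460 in the follistatin channel and from 1188590 to 1449420 in the untreated channel, without overlap. That gap rested on Tnnc2, a troponin C, at a log2 ratio of -0.89 (adjusted p = 0.107 by limma). The sums of the other 9 markers overlapped, at 706556, 550213, 424524 and 561673 with follistatin on replicates 1 to 4, against 472613, 722833, 677715 and 780402 in untreated cells, higher on replicate 1 and lower on the other arrays. Of the 10 markers 4 had a positive and 6 a negative mean ratio, and 1, Tnnc2, had an unadjusted p under 0.05. Their part in the ADAM values was not tested. Of 9 markers of other cell types, 5 (Ptprc, Pecam1, Cdh5, Epcam and Adipoq) were detected nowhere. Another 3 (Cd68, Krt8 and Sox10) were detected in each channel of each array, and Rbfox3 on 4 arrays with follistatin and 3 without. The summed signal of the 9 ran from 318 to 376 with follistatin and from 312 to 374 without.

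None of the 7 genes passed the test, but they differed among themselves in how steady the ratio was over the arrays. Adam17 and Adam9 had higher signals in follistatin-treated cells on all 4 arrays, at 2.1-fold and 1.7-fold by the mean ratio. Adam8 and the probe for Adam10 were also positive on all 4, by amounts that varied widely between arrays. Adam15 had probes of opposite mean sign, Adam19 had no common direction, and Adam12 was not detected.

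The test was limma's moderated test of the log2 ratio of follistatin over untreated processed signal against 0, run on 27016 probes detected on 3 or more arrays of one channel, with Benjamini-Hochberg adjustment over all of them. Of the 12 ADAM probes 10 were tested, and each of these was detected in every channel of the 4 arrays. By limma, 0 of the 10 had an adjusted p under 0.05, where 0.0074% of all tested probes did, 2 probes in all. These were probes for Olfr1299 and Ces3b, both lower and named only because they were the whole count. At an unadjusted p under 0.05, 5 of the 10 were higher and 0 lower, where 9.93% of all tested probes were higher and 10.8% lower. With replicates 2 and 3 averaged, 3 of the 10 remained, both Adam17 probes and Adam9. In that setting 3073 of the 27016 probes were under 0.05 in either direction. The same 10 probes had a median log2 ratio of 0.54, against 0.014 over all tested probes. The mean was positive for 8 of them, where 51.3% of all tested probes had a positive mean. A positive ratio on all 4 arrays was seen for 5, where 13.7% of all tested probes had one, and a negative ratio on all 4 for 0, where 14.5% had one. The mean was at least 1.6-fold higher (the minimum in the study's methods) for 4 and as much lower for 0, where 6.49% of all tested probes were that much higher and 9.34% lower. The 5, the 3 and the 4 include both probes of Adam17, which read 1 transcript and are not independent.

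**Figure D1:**
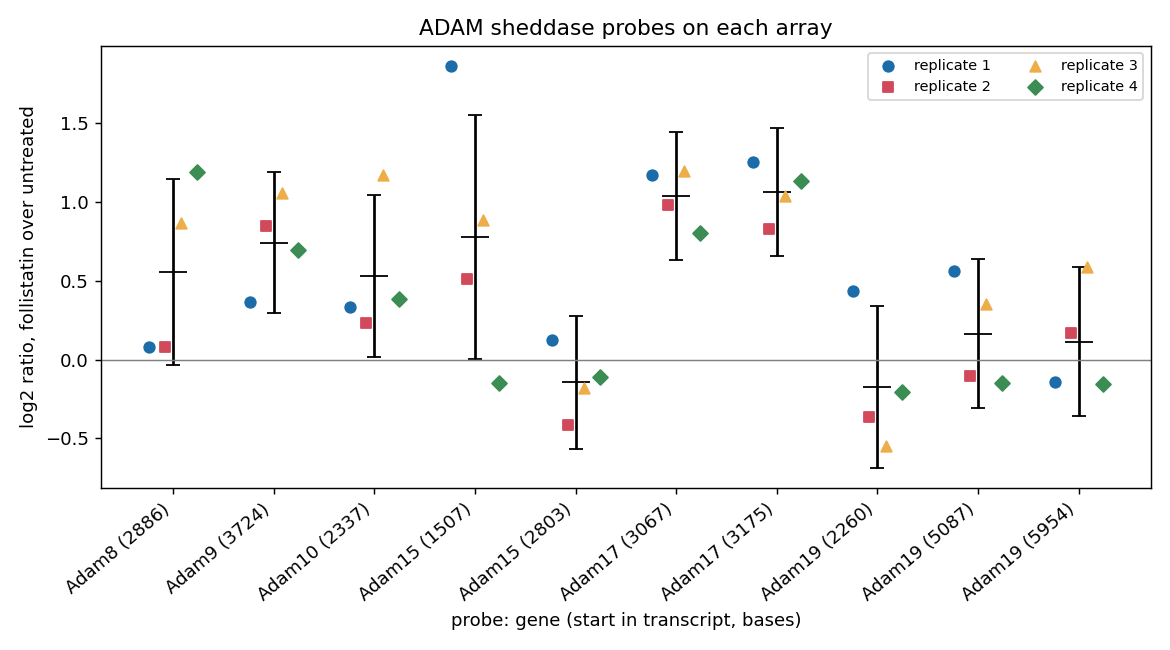
Log2 ratio of follistatin over untreated processed signal on each array (coloured points) for the 10 tested ADAM probes, with the mean (horizontal tick) and its 95% interval from limma (bars). Both Adam17 probes lie between 0.80 and 1.25 on every array, whereas Adam15 (1507) spans -0.15 to 1.87.

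Adam17, also called TACE, is the sheddase of tumour necrosis factor and of several ligands of the epidermal growth factor receptor. It was read by probes starting at bases 3067 and 3175 of the transcript. The file headers name the build mm9, in which these lie on the minus strand at chr12:21330653-21330712 and chr12:21330545-21330604, so they are neighbouring but separate sites. The first 30 of the 60 bases of each probe are given here because this transcript had the most even ratio, and the agreement rests on both sites.
Adam17 probe at 3067: tcaactaaaagaggagcaagagaaacctgc
Adam17 probe at 3175: atctacattaagagcagtcctttccaagag

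The probe at base 3067 had processed signals, in fluorescence units, of 1431, 2234, 2621 and 2262 in follistatin-treated cells of replicates 1 to 4, against 636, 1130.3, 1141 and 1297 in untreated cells. At base 3175 the signals were 1678, 2390.5, 2834 and 2993 in follistatin-treated cells, against 704, 1343, 1378 and 1363 in untreated cells. At both probes the lowest follistatin signal was above the highest untreated signal. Of the 10 ADAM probes 4, with both Adam17 probes among them, were separated in this way and 0 in the opposite way. Over all tested probes 6.71% and 6.76% were. Replicate 1 was the lowest array in both channels, so its low follistatin signals went with low untreated ones.

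At base 3067 the log2 ratios were 1.17, 0.98, 1.20 and 0.80, with a mean of 1.04 (SE 0.17, n = 4 arrays, 95% interval 0.63 to 1.45, unadjusted p = 6.09e-04 and adjusted p = 0.102 by limma). At base 3175 they were 1.25, 0.83, 1.04 and 1.13, with a mean of 1.06 (SE 0.17, 95% interval 0.66 to 1.47, unadjusted p = 5.15e-04 and adjusted p = 0.102 by limma). The later probe minus the earlier one was 0.026 ± 0.23 on the log2 scale (SD, n = 4 arrays, exact two-sided sign-flip p = 0.875, where 0.125 is the smallest that 4 arrays allow). Replicate 4 was the lowest of the 4 at one site and the second highest at the other, so the spread between arrays was not shared by the sites. Both Adam17 probes lay among the 1.44% and 1.28% of tested probes with the highest mean ratio.

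**Figure D2:**
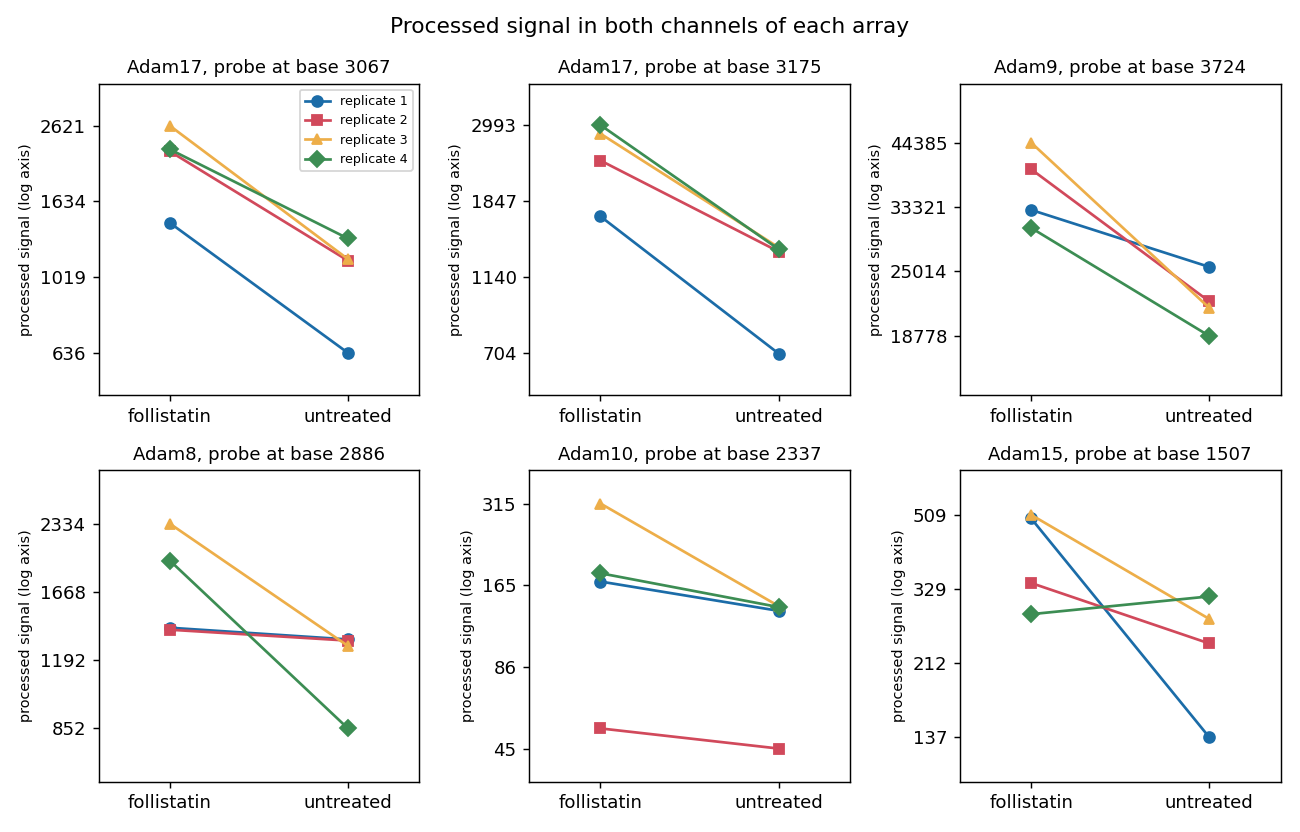
Processed signal (log axis, a separate range in each panel) with follistatin and in untreated cells, 1 line per array, for 6 ADAM probes. Every line falls to the right for Adam17, Adam9, Adam8 and Adam10, and for Adam15 (1507) replicate 4 runs the other way.

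Adam10, a sheddase of Notch receptors and of amyloid precursor protein, was read by 1 probe at base 2337 of its transcript, on the plus strand at chr9:70625964-70626022. Its signals were 169.9, 53.1, 315 and 181 in follistatin-treated cells of replicates 1 to 4, against 135, 45.2, 139.9 and 139 in untreated cells. The channels overlapped, because both were low on replicate 2. The log2 ratios were 0.33, 0.23, 1.17 and 0.39, with a mean of 0.53 (SE 0.22, n = 4 arrays, 95% interval 0.016 to 1.05, unadjusted p = 0.0450 and adjusted p = 0.232 by limma). Replicate 3 lay far above the others, and without it the mean was 0.32 (adjusted p = 0.726, range over the alternatives 0.205 to 0.726). With normexp background correction and loess in place of the processed signals the mean of this faint probe was 0.19, and replicate 2 was then at -0.062. A probe outside the 12, named in the files only by a cDNA clone that its description infers to be ADAM10, ran the other way on 3 arrays. Its signals were 10666, 5491, 7454 and 11968 in follistatin-treated cells, against 14082, 10616, 10399 and 8819 in untreated cells, and its log2 ratios were -0.40, -0.95, -0.48 and 0.44. Which transcript the clone probe reads is not settled, so its ratios are given beside those of Adam10 and not as a second reading of it.

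The proximal promoters of Adam17 and Adam10 are shown because both genes encode major sheddases and had a positive ratio on all arrays at the probes that carry their names. The bases are the 250 before the annotated start, from RefSeq (GRCm38.p6), 5′ to 3′ along the gene, with capitals at each GC box, the letters GGGCGG on either strand, a motif that Sp1-type factors bind. Of the 7 genes, 5 had an entry.
Adam17, minus strand, chr12:21373633-21373882: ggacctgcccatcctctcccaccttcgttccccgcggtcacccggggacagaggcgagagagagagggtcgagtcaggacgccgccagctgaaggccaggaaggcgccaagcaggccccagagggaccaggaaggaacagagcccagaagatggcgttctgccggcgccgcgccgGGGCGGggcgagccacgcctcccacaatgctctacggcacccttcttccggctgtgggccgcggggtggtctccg
Adam10, plus strand, chr9:70678732-70678981: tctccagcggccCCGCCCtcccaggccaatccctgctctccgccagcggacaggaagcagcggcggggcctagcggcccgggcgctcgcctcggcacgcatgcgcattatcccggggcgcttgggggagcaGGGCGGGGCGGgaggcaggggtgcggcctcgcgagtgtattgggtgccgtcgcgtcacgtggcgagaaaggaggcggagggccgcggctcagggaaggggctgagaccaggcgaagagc

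The Adam17 window held 1 GC box and the Adam10 window 3, of which a pair overlap by their end bases. Adam8 and Adam15 held 1 each, and the 3 windows of Adam19 held 0. Of 32851 promoter windows of that length, 32.7% held at least 1. The letters CAGAC, a Smad box that some Smad proteins of the activin pathway can bind, were searched on both strands as well. They stood 2 times in the windows of Adam8 and Adam15, 1 time in 2 of the Adam19 windows, and 0 times in those of Adam17 and Adam10, where 42.2% of all windows held them. A match is only a match of letters, and windows without one say nothing about the factor.

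Among the meltrins, Adam9, which cleaves growth factor precursors and binds integrins, had the steadier values. Its 1 probe starts at base 3724, on the minus strand at chr8:26060284-26060343, and its first 30 bases are shown as the site behind the only Adam9 value.
Adam9 probe at 3724: agtggtttccttagataactacagaattat

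Its signals were 32901, 39429.6, 44385 and 30373 in follistatin-treated cells of replicates 1 to 4, against 25528, 21895, 21275 and 18778 in untreated cells. The channels did not overlap, and the treated signal was the higher one on each array. The log2 ratios were 0.37, 0.85, 1.06 and 0.69, with a mean of 0.74 (SE 0.19, n = 4 arrays, 95% interval 0.30 to 1.19, unadjusted p = 0.00599 and adjusted p = 0.126 by limma). Replicate 1 had the smallest ratio and also the highest untreated signal of the 4 arrays.

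Adam12 was read by probes at bases 3926 and 6670, on the minus strand at chr7:141078571-141078630 and chr7:141075827-141075886. Neither was detected on any array, so neither was tested and no fold is given. The probe at base 3926 had 5.20, 6.27, 5.21 and 4.83 fluorescence units in follistatin-treated cells, against 6.79, 5.24, 4.77 and 4.39 in untreated cells. At base 6670 the signals were 21.5, 20.8, 15.3 and 16.7 in follistatin-treated cells, against 28.6, 9.02, 19.9 and 3.49 in untreated cells. An absence of the transcript was not shown.

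Adam19, which cleaves neuregulin precursors, was read by 3 probes on the plus strand of chromosome 11, in mm9 at chr11:45952365-45952424, chr11:45959545-45959604 and chr11:45960412-45960471. The probe at base 2260 had signals of 100.2, 83.2, 73.7 and 105 with follistatin, against 74.2, 107.3, 107.9 and 121 in untreated cells. At base 5087 the signals were 1136, 1044, 1626 and 1434 with follistatin, against 769, 1121, 1275 and 1593 in untreated cells. At base 5954 they were 2276, 2669.5, 3516 and 2226 with follistatin, against 2511, 2375, 2338 and 2480.2 in untreated cells. The channels overlapped at all 3 sites. Replicate 4 was lower with follistatin at each site, while the other arrays had sites of both signs.

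The mean log2 ratios of Adam19 were -0.17, 0.17 and 0.11 in the order of the probes (SE 0.20 to 0.21, n = 4 arrays each, adjusted p = 0.651 to 0.760 by limma). Their 95% intervals ran from -0.69 to 0.34, from -0.31 to 0.64 and from -0.36 to 0.59, so each included 0 and ratios in either direction. The intervals do not show what size of difference 4 arrays could have detected. The site at base 5087 exceeded the site at base 2260 on 4 of 4 arrays, by 0.34 ± 0.39 on the log2 scale (SD, exact two-sided sign-flip p = 0.125, the smallest that 4 arrays allow, or 0.625 after adjustment over the 5 probe pairs compared). At base 5954 the sign turned without replicate 3, to -0.043.

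Adam15, also called metargidin, carries an integrin-binding sequence in its disintegrin domain in humans. Its probes start at bases 1507 and 2803, counted on 2 different reference transcripts of the gene, and both are shown because their means had opposite signs. The one at base 1507 maps on the minus strand to chr3:89147875-89148074, a span of 200 bases for a 60-base probe, so it crosses at least 1 intron and reads spliced RNA. The one at base 2803 maps to chr3:89143688-89143747.
Adam15 probe at 1507: gtgcatctgatggaccctgttgtcaaaact
Adam15 probe at 2803: acagacaatctggtgtccagccctaaagaa

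The probe at base 1507 had signals of 498, 340.3, 509 and 283 in follistatin-treated cells, against 137, 238, 275 and 314 in untreated cells. Its log2 ratios were 1.87, 0.52, 0.89 and -0.15, with a mean of 0.78 (SE 0.32, n = 4 arrays, 95% interval 0.0031 to 1.55, unadjusted p = 0.0493 and adjusted p = 0.240 by limma). The value rested on replicate 1: without it the mean was 0.42 (adjusted p = 0.395, range over the alternatives 0.1002 to 0.609), and with normexp and loess it was 0.47. Replicate 4, on the other slide, had the opposite sign.

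The probe at base 2803 had signals of 6426, 5003, 5963 and 5292 in follistatin-treated cells, against 5890.3, 6673, 6767 and 5702 in untreated cells. Its mean log2 ratio was -0.15 (SE 0.18, n = 4 arrays, 95% interval -0.57 to 0.28, adjusted p = 0.656 by limma), with 1 array positive and 3 negative. The ratio at base 2803 minus that at base 1507 was -0.92 ± 0.74 (SD, n = 4 arrays) and negative on 3 of 4 arrays, with an exact two-sided sign-flip p = 0.250. Whether the probes read different transcript forms was not tested, and 4 arrays did not separate the difference from its spread.

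Adam8, a sheddase best known from leukocytes and osteoclasts, was read by 1 probe at base 2886, on the minus strand at chr7:147164928-147164987. Its signals were 1398, 1385, 2334 and 1947 in follistatin-treated cells of replicates 1 to 4, against 1320.2, 1313, 1279 and 852 in untreated cells. The channels did not overlap, yet replicates 1 and 2 were nearly level and the difference lay in replicates 3 and 4. The log2 ratios were 0.083, 0.077, 0.87 and 1.19, with a mean of 0.56 (SE 0.25, n = 4 arrays, 95% interval -0.036 to 1.15, unadjusted p = 0.0618 and adjusted p = 0.262 by limma). Without replicate 4, within slide 1, the mean was 0.34 (adjusted p = 0.388, range over the alternatives 0.245 to 0.697). The leukocyte marker Ptprc was not detected on any array. The macrophage marker Cd68 was detected in each channel of each array, at 60.1 to 116 with follistatin and 62.4 to 87.5 without. Its log2 ratio was 0.26 (SE 0.17, adjusted p = 0.426 by limma).

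**Figure D3:**
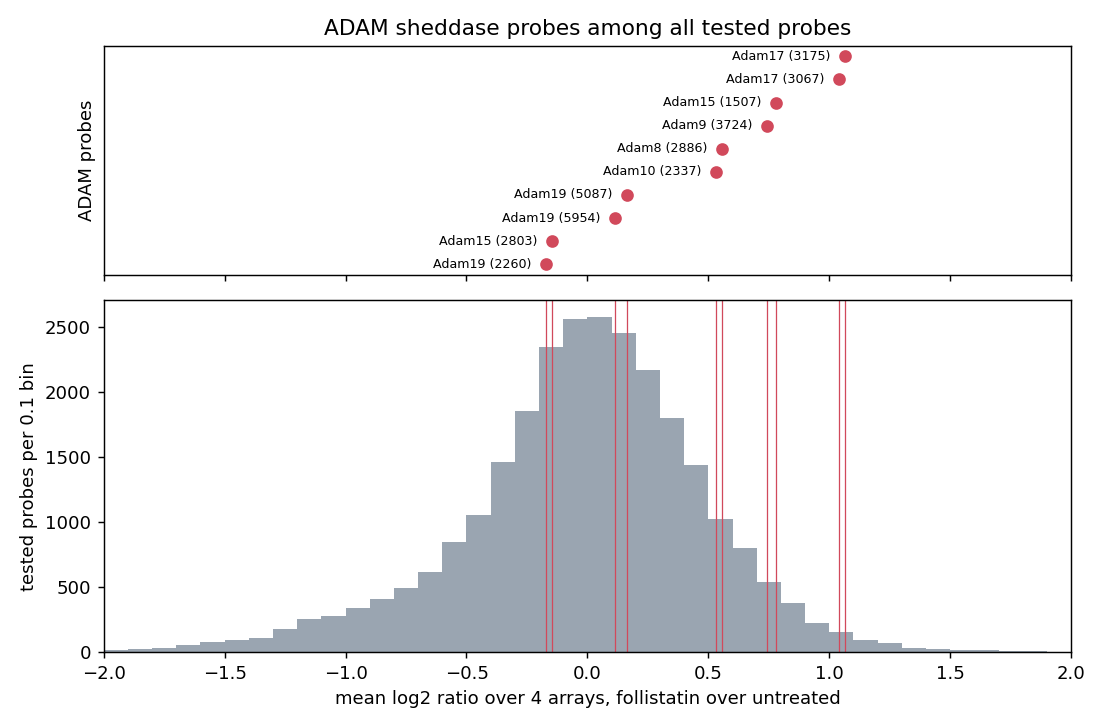
Mean log2 ratio over 4 arrays of all tested probes (lower panel, count of probes per bin, shown between -2 and 2) with the 10 tested ADAM probes (red lines, named in the upper panel). The ADAM probes run from -0.17 to 1.06, around a median of 0.54, where all tested probes have a median of 0.014.

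Array by array, 9, 7, 8 and 5 of the 10 tested ADAM probes were positive on replicates 1 to 4, where 48.7% to 51.7% of all tested probes were. Their median log2 ratio was 0.40, 0.20, 0.88 and 0.14. The Adam17 probes lay within the top 9.10% of tested probes on every array, and Adam9 within the top 8.63% on replicates 2, 3 and 4 but only within the top 26.1% on replicate 1. The other tested probes each fell outside the top 20% on at least 1 array.

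The genes with the most similar values were sought among 14501 tested genes, 1 probe each, by the root-mean-square difference of the 4 log2 ratios. Nearest to Adam17, by its probe at base 3175 only, were Lrp4 at 0.14, Cfhr2 at 0.18 and Selenon at 0.18. Nearest to Adam9 were Arhgap18 at 0.096, Odf2l at 0.11 and Nefm at 0.11. For Adam10 they were Msantd1 at 0.058, S100a3 at 0.087 and Anxa9 at 0.096, and for Adam8 they were C630043F03Rik at 0.12, 2310047K21Rik at 0.17 and Arsk at 0.17. No other ADAM sheddase was among these, but with 3 genes kept of 14501 that absence says nothing about the family. Adam12 was not tested and so was not among the genes compared.

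Of the genes around the sheddases, 0 passed the limma test over all tested probes, where 0.0138% of 14528 genes, each at its brightest probe, did. At an unadjusted p under 0.05, 9.21% of genes were higher and 6.81% lower, 52.5% had a positive mean, and the median over genes was 0.022. Proteins that mature or carry the sheddases had a median of 0.055, with 11 positive and 8 negative of 19 tested. In that list 1 gene was higher and 1 lower at an unadjusted p under 0.05. Rhbdf2, iRhom2, which escorts Adam17 out of the endoplasmic reticulum, was the lower one at -0.48 (SE 0.18, adjusted p = 0.205 by limma), negative on 4 of 4 arrays, though its other probe was at 0.025. Rhbdf1, iRhom1, was at 0.36 (SE 0.33), with replicate 1 at 1.58 and the others from -0.37 to 0.40. Snx9, a sorting nexin that binds the tails of Adam9 and Adam15, was the higher one at 0.55 (SE 0.21, adjusted p = 0.223 by limma). Pacsin3, an Adam12-binding endocytic adaptor, was at -0.42 and the convertase Pcsk7 at 0.34, and neither had an unadjusted p under 0.05. Furin, which removes prodomains, was at -0.14 ± 0.19 (SD, n = 4), and of the tetraspanins that carry Adam10, Tspan5 was at 0.055 ± 0.53, Tspan14 at -0.034 ± 0.26, Tspan15 at 0.14, Tspan17 at 0.13 and Tspan33 at -0.32 (the last negative on 3 of 4 arrays).

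Of the inhibitors, 5 were tested, 4 positive and 1 negative with a median of 0.37, and 0 had an unadjusted p under 0.05. Timp3, the tissue inhibitor that blocks Adam17, was at 0.40 ± 0.43 (SD, n = 4) and positive on 4 of 4 arrays, with replicate 4 at 1.02 and the others from 0.072 to 0.36. Timp4 was at 0.37 ± 0.19 and Reck, a membrane-anchored inhibitor of Adam10, at 0.43 ± 0.36. Timp2 was at 0.19 ± 0.90 and Timp1 at -0.13 ± 0.63 (its other probe at -0.68), and both were positive on replicates 1 and 4 and negative on replicates 2 and 3.

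**Figure D4:**
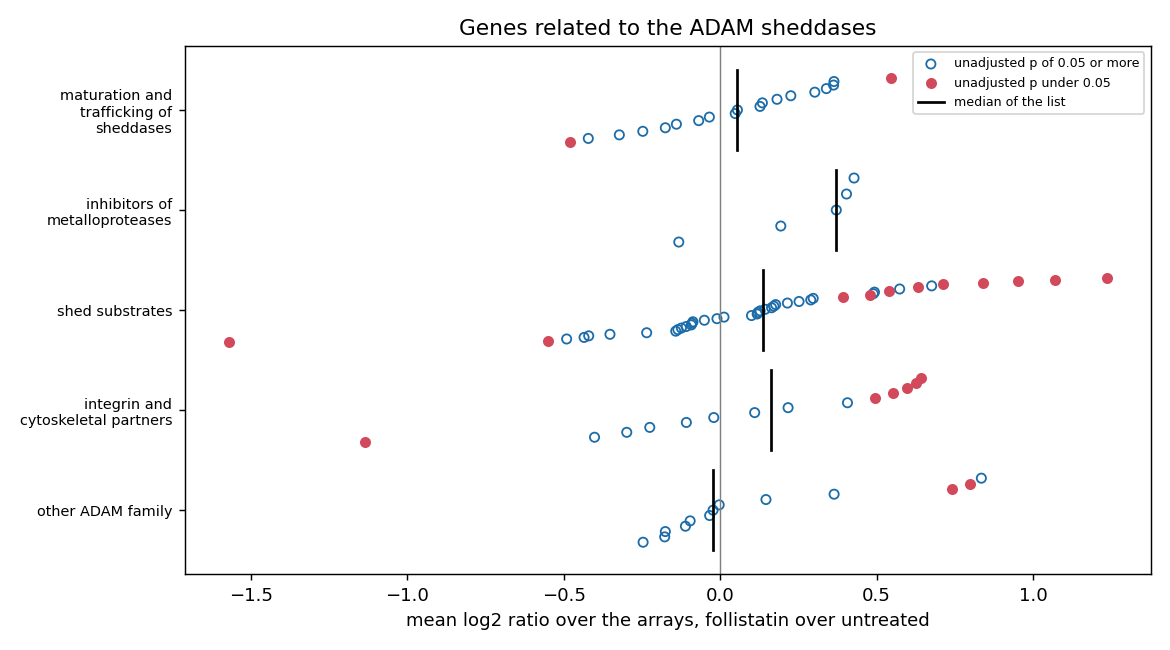
Mean log2 ratio over the arrays of tested genes related to the sheddases, 1 brightest probe per gene, in 5 lists (points are spread vertically within a list for legibility, red where the unadjusted p is under 0.05, black line at the list median). No gene passed after adjustment, and list medians run from -0.023 to 0.37.

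Proteins that these enzymes shed or otherwise cut had a median of 0.14, with 26 positive and 16 negative of 42 tested. At an unadjusted p under 0.05, 9 were higher and 2 lower. Kitl, stem cell factor, was at 1.07 (SE 0.24, adjusted p = 0.112 by limma) and positive on 4 of 4 arrays, but its other probe was at -0.56. App, amyloid precursor protein, was at 0.71 (SE 0.18, adjusted p = 0.126 by limma), with 3 probes from -1.19 to 0.71. Egf was at 1.23 (SE 0.36, adjusted p = 0.148 by limma), with 2.07 and 2.02 on replicates 3 and 4 and 0.18 on replicate 1. Tnfrsf1b, a tumour necrosis factor receptor, was at -0.55 (SE 0.17, adjusted p = 0.164 by limma) and negative on 4 of 4 arrays.

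The substrates given whatever they showed were mixed. Igfbp5, an insulin-like growth factor binding protein, was at 0.84 (SE 0.28, adjusted p = 0.173 by limma), with its other probe at -0.72, and Igfbp3 was at 0.16 ± 0.48 (SD, n = 4). Hbegf, a heparin-binding ligand of the epidermal growth factor receptor, was at -0.42 ± 0.69 and Notch1 at -0.35 ± 0.53, both negative on replicates 1, 2 and 3 and positive on replicate 4. The cadherins Cdh2 and Cdh15, the second of them the M-cadherin of muscle cells, were at -0.050 ± 0.27 and 0.22 ± 0.55, but the other probe of Cdh2 was at -1.83. Vcam1, an adhesion protein, was at 0.29 ± 0.23 and positive on 4 of 4 arrays, and Sdc4, a syndecan, was at 0.25 ± 0.88 with its other probe at -0.41. Tnf itself did not reach the detection minimum and was not tested.

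Among 14 integrin and cytoskeletal partners the median was 0.16, and 5 were higher and 1 lower at an unadjusted p under 0.05. Pik3r1, a regulatory subunit of phosphoinositide 3-kinase, was the lower one at -1.14 (SE 0.19, adjusted p = 0.102 by limma), negative on 4 of 4 arrays. Its 4 probes all had negative means, which ran from -1.14 to -0.27. Itga6, an integrin alpha chain, was at 0.64 (SE 0.17, adjusted p = 0.129 by limma), but its 3 probes ran from -0.91 to 0.64. Actn1, an actin cross-linker, was at 0.63 (SE 0.17, adjusted p = 0.136 by limma). Itga3 was at 0.60 (SE 0.23, adjusted p = 0.214 by limma), with 3 probes from 0.074 to 0.98. Of the other ADAM genes, many of them known from testis, 13 of the 25 on the array were tested, 5 positive and 8 negative with a median of -0.023. Adam23, a family member without protease activity, was at 0.74 (SE 0.22, adjusted p = 0.154 by limma) and positive on 4 of 4 arrays. Adam5 was at 0.80 (SE 0.24, adjusted p = 0.157 by limma), positive on 3 of 4 arrays. Its signals were faint, at 37.8, 83.2, 53.9 and 52.3 with follistatin and 18.4, 36.5, 27.5 and 52.4 in untreated cells. Adam1a was at 0.83 (SE 0.39, adjusted p = 0.280 by limma), also positive on 3 of 4 arrays. Adam2, with no signal above 26.9, was at -0.25 (SE 0.19, adjusted p = 0.489 by limma).

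**Figure D5:**
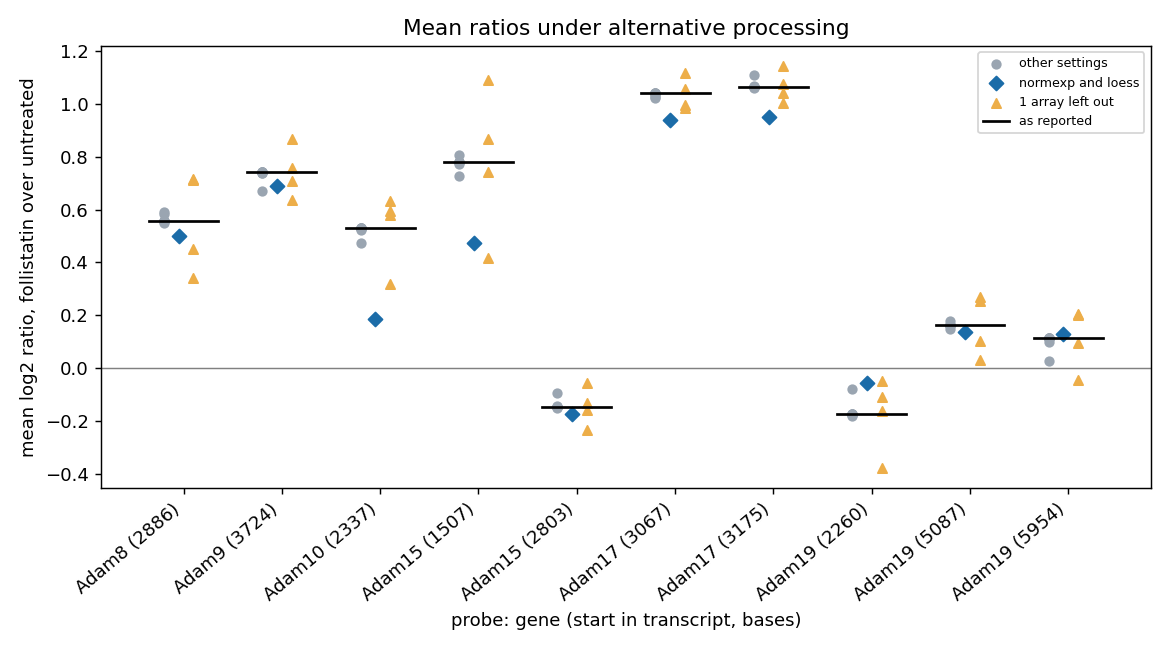
Mean log2 ratio of each tested ADAM probe as reported (black line) and under alternative processing: normexp and loess (blue), 1 array left out (orange) and the other settings (grey). Both Adam17 probes stay between 0.94 and 1.14, while Adam10 runs from 0.19 to 0.63 and Adam15 (1507) from 0.42 to 1.09.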

How the data were processed

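Expression was measured as spot intensity on 4 two-colour arrays. Per the file headers, the authors read the spots with Agilent Feature Extraction 10.7.3.1 for replicates 1 to 3 and 10.10.1.1 for replicate 4, and the deposited processed intensity values had the background subtracted and the dyes normalized array by array. The authors' deposited table of log2 values matched log2 of processed Cy3 over Cy5 of its own array (slope 1.00 for each array over 41174 probes), with column medians of -0.16, 0.17, 0.13 and 0.11 and no further centring. The deposited log10 ratios were read only to check direction. Per the series' design text, the methods filtered on flags and a coefficient of variation under 50%, a filter not applied here.

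Here log2 ratios of follistatin over untreated processed signals were computed in R 4.3.3 and tested with limma 3.58.1 (statmod 1.5.0 for the block). Control spots and outlier-flagged spots were left out, 0 non-control spots were saturated, and spots of a probe were averaged. The alternative used normexp (offset 50) on median signals with loess (span 0.3, 4 iterations). The processed signals are not scaled between arrays, so ratios, not levels, were tested. Gene names for the lists were updated through RefSeq (GRCm38.p6), which named 33645 of 41174 probes. A gene of a list stood by its brightest tested probe. From each list the 4 genes of smallest p and a fixed set of genes are named, and the 3 nearest genes for each member whose brightest probe had 1 sign on all arrays. The members and lists were chosen with earlier results of these data known. The fit was tested on simulated data with independent arrays, a setting that leaves out the likeness of replicates 2 and 3. The number of arrays limits the precision, and p-values take replicates 2 and 3 to be independent, although nothing here shows that they are.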

Additional observations from a re-analysis of the deposited data

Results flagged for a closer look

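The Adam10 probe was singled out because 1 of its 4 log2 ratios stood far from the rest: replicate 3 was at 1.17, while the others lay between 0.23 and 0.39. Chance gives such a gap in about 1 of 20 groups, and 12 probes were looked at. The gap depended on the processing of this faint probe. With normexp and loess replicate 3 was at 0.40, and replicates 1, 2 and 4 were at 0.21, -0.062 and 0.20.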

How the results depend on the processing

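By limma or by the methods' unpaired t-test, 0 of the 10 tested ADAM probes passed the adjusted threshold as reported or under any of the 13 alternatives run on them; taking 1 probe per gene covered 6 of the 10, without Adam15 at base 1507, Adam17 at base 3067 and Adam19 at bases 2260 and 5087, so these had 12. The mean ratio kept its sign in 125 of 126 comparisons. The exception was Adam19 at base 5954, whose leave-one-out means ran from -0.043, without replicate 3, to 0.21. The adjusted p of the Adam17 probes ranged from 0.0637 to 0.391 and from 0.0657 to 0.378, and that of Adam9 from 0.103 to 0.499. ADAM probes at an unadjusted p under 0.05 numbered 5 as reported and 4 with normexp and loess. They numbered 3, both Adam17 probes and Adam9, with slide as a random block, with replicates 2 and 3 averaged and by the methods' t-test. In that order 5606, 5159, 4210, 3073 and 5177 of all 27016 tested probes were under 0.05. Adam10 and Adam15 at base 1507 were in none of these counts of 3 or 4. With replicates 2 and 3 averaged, the means were 1.02 and 1.11 for Adam17 (unadjusted p = 0.00386 and 0.00238 by limma), 0.67 for Adam9, 0.47 for Adam10 and 0.58 for Adam8. With slide as a random block they were 1.03 and 1.07 for Adam17 and 0.74 for Adam9. Over all tested probes 2 passed as reported, and 0 with normexp and loess, with only probes detected in each channel of every array, with replicates 2 and 3 averaged and without each replicate in turn (0 to 0). The smallest adjusted p was then 0.0636 to 0.184, with 2574 to 7656 probes at an unadjusted p under 0.05, and the cause was not tested. The methods' t-test on separate channels, with no replicate block, passed 3 (Olfr1299, Ttyh1 and Sort1), 2 of them past 1.6-fold, and gave 0.187 for both Adam17 probes. No other paired analysis was possible because both channels of an array already form the ratio.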
